A study of Bos taurus with 21 samples.

Results

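The genes described here carry the prolactin and growth hormone signal into the milk-producing cell. They were taken by symbol: the receptors PRLR and GHR, the kinase JAK2, the transcription factors STAT5A and STAT5B, the inhibitors SOCS2, SOCS3 and CISH, and the transcription factor ELF5. Of these 9 genes, 8 had a row among the 13570 gene rows of the count tables, and JAK2 was not analysed here. All 8 were among the 12333 genes counted in 1 cow or more, which all entered the tests. Each gene was read in 21 Holstein cows against 4 measures: the casein level of the same library, the lactation period, the milk yield and the yield group.

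The RNA came from somatic cells of milk, the cells that are shed or migrate into the milk, so each library mixes epithelial and immune cells of 1 cow. The labels put 9 cows in the high yielding group (HY) and 12 in the low yielding group (LY). Milk yield is a breeding value relative to the population, for which no unit is given, and its lowest and highest values were 181 and 468 among HY cows and -404 and 86.9 among LY cows. Parity was 2 to 4, and the cows' ages are not given in the sources used here. The lactation period was 41 to 268 days in HY (median 168) and 52 to 270 days in LY (median 211.5). Each library held 7878557 to 28541904 counts on genes.

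When prolactin or growth hormone binds its receptor, the receptor-bound kinase JAK2 phosphorylates the receptor and STAT5, which dimerizes and enters the nucleus. In the mammary gland STAT5A is the main form needed for alveolar development and milk protein transcription, and ELF5, an epithelial ETS factor, acts beside it in the secretory lineage. SOCS2, SOCS3 and CISH are themselves switched on by STATs and damp the signal in a feedback loop. STAT5, SOCS3 and CISH are not particular to the mammary cell, since cytokines use them in leukocytes too.

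Levels are given as CPM, counts scaled to a common library size, with a TMM factor per library that sets aside the few genes with very large counts. Levels of different genes are not compared, because transcript lengths were not used here. The casein level of a cow is the summed CPM of CSN1S1, CSN1S2, CSN2 and CSN3, the genes of the 4 caseins. These 4 genes took 0.0876% of all counts on genes in the lowest cow (HY replicate 7) and 44.2% in the highest (HY replicate 8). The median share was 4.34% in HY and 11.04% in LY. The casein level did not differ detectably between the groups (15.1 ± 3.90 in HY, SD, n = 9, against 15.9 ± 2.33 in LY, SD, n = 12, on the log2 scale; exact two-sided permutation test, p = 0.529).

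The sampled cells held markers of several types in every cow. The summed level of 8 luminal epithelial keratins and surface genes was 32.7 to 3281 CPM, and none of the 8 was at 0 in a cow. The 5 neutrophil markers with a row summed to 1632 to 11043 CPM and the 7 macrophage markers to 1230 to 6507 CPM. The 6 T cell markers summed to 40.5 to 986 CPM and the 3 B cell markers to 2.36 to 100.5 CPM, each with members at 0 in some cows. In such a mixture, fewer cells of a type and less RNA of a gene per cell cannot be told apart.

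One library stood apart from the rest for members of the list. In LY replicate 12, CISH was at 486 CPM and SOCS3 at 387 CPM, 10.95 times and 5.76 times the next highest cow. This cow also had the lowest casein share in LY, 0.164%. The tests and correlations of CISH and SOCS3 with casein are therefore given with and without it.

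Against the casein level, 5 of the 8 genes passed the test, beside 20.9% of all 12333 genes. ELF5, GHR and PRLR rose with casein, beside 11.4% of all genes that did so. CISH and SOCS3 fell, beside 9.58% of all genes, and neither call held without LY replicate 12. The split over all genes depends on the scaling, with 1401 genes rising and 1182 falling here, and 643 and 2230 without TMM factors. STAT5A, STAT5B and SOCS2 did not pass. In the 20 other cows 4 members passed, ELF5, GHR, PRLR and SOCS2, beside 15.6% of all genes. The median slope of the 8 genes was 0.01 log2 units per doubling of casein, and that of all genes was -0.01. The tests were edgeR's quasi-likelihood tests of the slope with Benjamini-Hochberg adjustment over all genes.

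**Figure D1:**
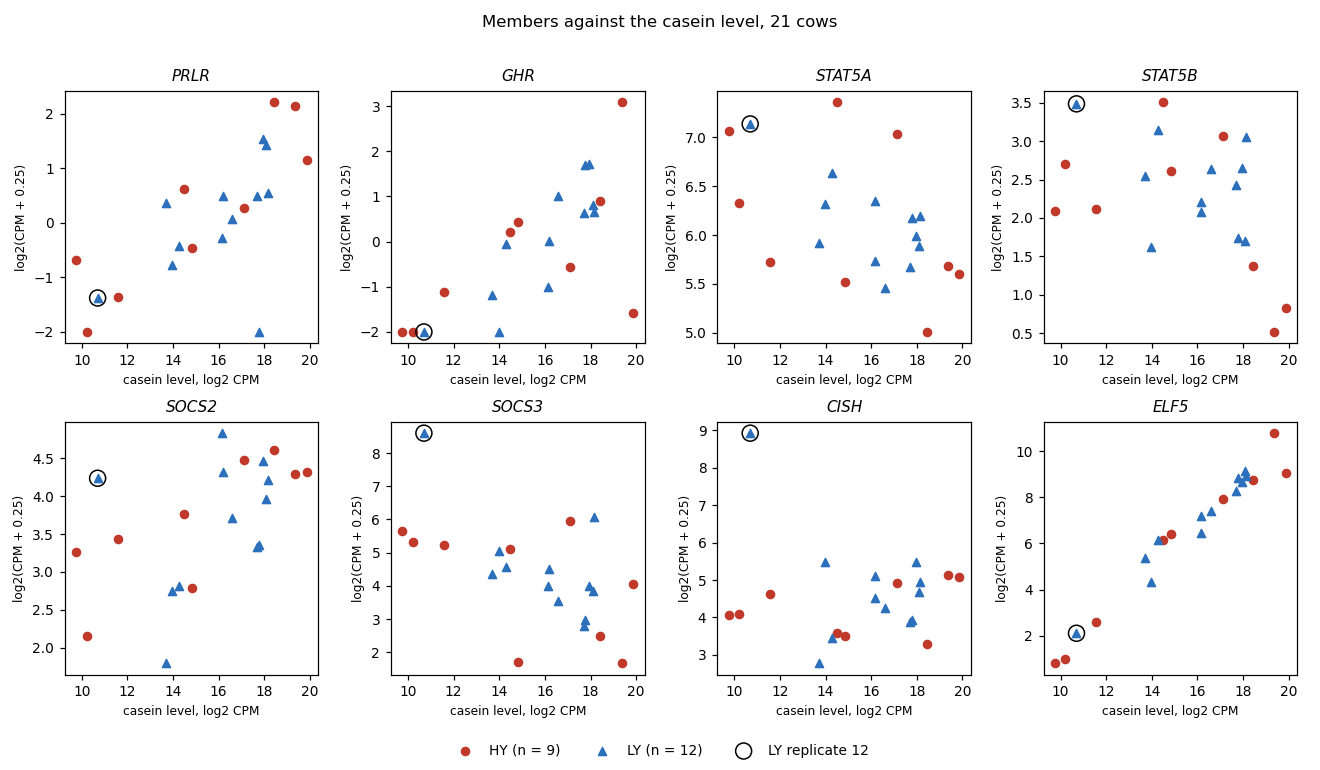
Each panel plots 1 gene in 21 cows, with log2(CPM + 0.25) against the casein level in log2 CPM; red circles are HY cows, blue triangles LY cows, and a black ring marks LY replicate 12. ELF5 lies along a line (r = 0.981), while CISH and SOCS3 have 1 point, the ringed cow, far above the others.

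ELF5 had the tightest relation with casein of the 8 genes. Its level in HY was 1.50 CPM in the lowest cow, 84.2 CPM at the median and 1766 CPM in the highest. In LY it was 4.04 CPM, 157 CPM and 565 CPM. The groups overlapped, apart from HY replicate 9 above every LY cow and the 2 lowest HY cows below every LY cow. The lowest cows of each, HY replicate 7 and LY replicate 12, were also the lowest of their group in casein share. Between its lowest and highest cow, HY replicates 7 and 9, ELF5 differed 1176-fold, with 12 counts in the lowest. The casein level differed 1111-fold between its own lowest and highest cow, HY replicates 7 and 8. The TMM factors of HY replicates 8 and 9 were 0.460 and 0.498, which raises their CPM values and so both folds.

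Per doubling of the casein level ELF5 rose by 0.94 log2 units (SE 0.05, n = 21, edgeR adjusted p = 1.64e-12), a slope close to that of the casein genes themselves, which was 0.97 to 1.03. Across the 21 cows, Pearson's r between ELF5 and the casein level was 0.981 and Spearman's rho 0.981 (permutation p = 1e-05 for both, the smallest that 100000 resamples can give). It was 0.971 without the 2 cows farthest from the median casein level. Within the 16 cows outside the set of 5 with a high mapping rate, a set that includes LY replicate 12, it was 0.984. No correlation was computed over only the 5 cows of that set. These are among 24 relations computed for the 8 genes with casein, lactation period and milk yield.

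PRLR, the prolactin receptor, was at the edge of detection. It gave 329 counts in all 21 cows together, with at least 10 counts in 14 of them. In HY its level was 0 CPM, 0.951 CPM at the median and 4.38 CPM in the highest cow. In LY it was 0 CPM, 0.921 CPM and 2.66 CPM. The groups overlapped, apart from HY replicates 6 and 9 (4.38 and 4.12 CPM), which lay above every LY cow. The cows at 0 were HY replicate 1 and LY replicate 2, where 3 counts would be 0.147 CPM and 0.344 CPM, so that a level up to there was not detectable at this depth. The former was among the lowest cows in casein, while the latter had a casein share of 17.0%.

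PRLR rose by 0.44 log2 units per doubling of casein (SE 0.10, n = 21, edgeR adjusted p = 0.00218). Its Pearson's r with casein was 0.714 (permutation p = 0.00027) and its rho 0.754 (permutation p = 0.00011). Without the 2 farthest cows r was 0.669, and within the 16 cows 0.701. The call held without LY replicate 12, with a slope of 0.43 (SE 0.11, edgeR adjusted p = 0.00722).

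GHR, the growth hormone receptor, was counted as thinly, with 317 counts in total and at least 10 in 12 cows. Its level in HY ran from 0 CPM over a median of 0.423 CPM to 8.25 CPM. In LY it ran from 0 CPM over 1.04 CPM to 3.03 CPM. The groups overlapped, with a single high cow in HY, replicate 9, which was 5.14 times the next HY cow. GHR was at 0 in HY replicates 1 and 7 and in LY replicates 4 and 12. HY replicate 8, the cow of the highest casein share, had 1 count of GHR, against 42 in HY replicate 9.

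GHR rose by 0.66 log2 units per doubling of casein (SE 0.13, n = 21, edgeR adjusted p = 0.000747). Pearson's r was 0.705 (permutation p = 0.0004), and rho was 0.723 (permutation p = 0.00038). Without the 2 farthest cows r was 0.614, and within the 16 cows it was 0.695. Without HY replicate 9 the slope was 0.60, the lowest among the fits that leave out 1 cow.

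STAT5A, the transducer most tied to mammary development, had the narrowest range of the 6 genes counted in every cow, 5.14-fold between the lowest and the highest cow. Its level was 31.9 CPM, 52.5 CPM and 164 CPM in the lowest, median and highest HY cow. The corresponding LY values were 43.6 CPM, 67.5 CPM and 141 CPM. The LY range lay inside the HY range. Its slope on casein was -0.11 log2 units per doubling (SE 0.04, n = 21, edgeR adjusted p = 0.0529), just short of the threshold. The correlation was -0.510 (permutation p = 0.0182, rho -0.527, permutation p = 0.0152), -0.437 without the 2 farthest cows and -0.437 within the 16 cows. Without TMM scaling the slope was -0.18 and passed (edgeR adjusted p = 0.0168).

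STAT5B, its close paralog, ran from 1.18 CPM (6 counts) over 4.08 CPM to 11.1 CPM in HY. In LY it ran from 2.82 CPM over 5.37 CPM to 10.95 CPM, inside the HY range. The slope on casein was -0.11 (SE 0.06, n = 21, edgeR adjusted p = 0.216). The correlation with casein was -0.454 (permutation p = 0.0402, rho -0.429, permutation p = 0.0552), -0.547 without the 2 farthest cows and -0.344 within the 16 cows. The counting set reads without a unique alignment apart from the genes, at 21.6% to 27.5% of each library. Reads from stretches shared by the 2 genes may have been left out in this way, so both levels are uncertain to that extent.

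The ratio of STAT5A to STAT5B counts does not depend on scaling between libraries. It was 7.27 in the lowest cow (LY replicate 3), 12.9 at the median and 43.3 in the highest (HY replicate 9, from 260 and 6 counts). The 3 highest ratios were all in HY and came from 6 to 32 STAT5B counts. No relation of the log2 ratio with casein was detected (r = 0.101, permutation p = 0.660, rho 0.100, permutation p = 0.665). Without the 2 farthest cows r was 0.318, and within the 16 cows 0.0611.

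SOCS2, the first of the feedback inhibitors, restrains growth hormone signalling in particular. Its level was 4.21 CPM, 13.4 CPM and 24.2 CPM in HY and 3.22 CPM, 14.1 CPM and 28.3 CPM in LY (lowest, median and highest cow). The groups overlapped almost completely. The slope on casein was 0.13 (SE 0.05, n = 21, edgeR adjusted p = 0.0726). In the 20 cows other than LY replicate 12 it was 0.19 (SE 0.05, edgeR adjusted p = 0.0187) and passed, beside 9.95% of all genes that rose in that fit. The correlation was 0.550 over 21 cows (permutation p = 0.0103, rho 0.601, permutation p = 0.00484). It was 0.456 without the 2 farthest cows, 0.711 within the 16 cows and 0.662 without LY replicate 12.

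SOCS3, which blocks JAK kinases bound to cytokine receptors, was 2.95 CPM, 34.1 CPM and 61.9 CPM in the lowest, median and highest HY cow. In LY it was 6.68 CPM, 18.2 CPM and 387 CPM. Apart from LY replicate 12 and its next cow at 67.3 CPM, the LY cows lay within the HY range. Over 21 cows SOCS3 fell by 0.33 log2 units per doubling of casein (SE 0.08, edgeR adjusted p = 0.00561). Leaving out LY replicate 12 gave a slope of -0.14 (SE 0.08, edgeR adjusted p = 0.291), beside 5.63% of all genes that fell in that fit. Across the cows r was -0.580 (permutation p = 0.00523) and rho -0.548 (permutation p = 0.0111), and without that cow they were -0.483 and -0.487 (permutation p = 0.0303 and 0.0302). It was also negative without the 2 farthest cows (r = -0.566) and within the 16 cows (r = -0.472).

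CISH, a STAT5 target that competes for the receptor, was 9.48 CPM, 16.7 CPM and 35.0 CPM in HY and 6.63 CPM, 24.1 CPM and 486 CPM in LY. Without LY replicate 12 the highest cow of all was at 44.4 CPM. Over 21 cows its edgeR slope on casein was -0.26 (SE 0.08, adjusted p = 0.0252). In the 20 other cows it was 0.08 (SE 0.05, edgeR adjusted p = 0.354), with the opposite sign. The correlation with casein was -0.119 over 21 cows (permutation p = 0.620, rho 0.181, permutation p = 0.429), -0.250 without the 2 farthest cows, and 0.311 without LY replicate 12 (permutation p = 0.182). Within the 16 cows, which also leave out LY replicate 12, it was 0.275. The fall of CISH with casein rested on 1 library.

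**Figure D2:**
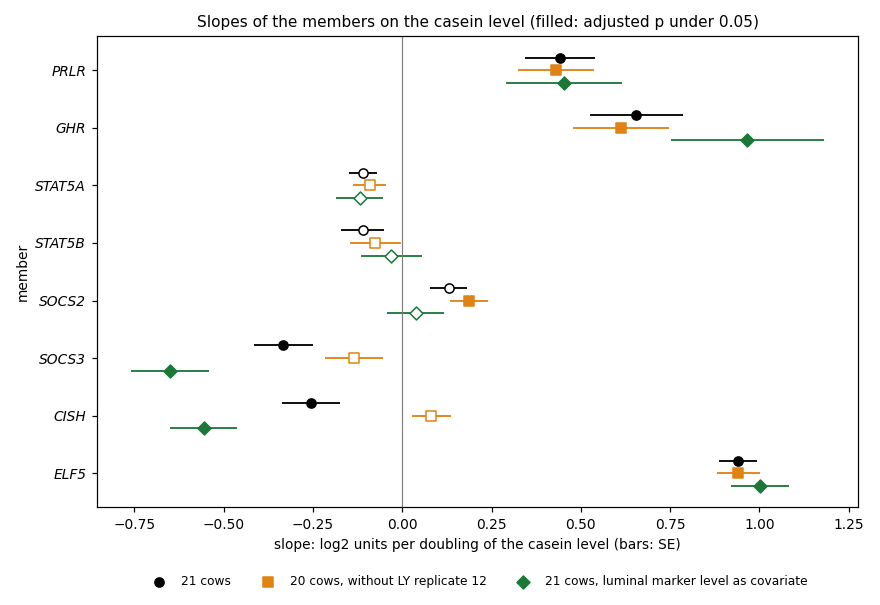
Points give the slope of each gene in log2 units per doubling of the casein level with its SE, for all 21 cows (black), for 20 cows without LY replicate 12 (orange) and with the luminal marker level as a covariate (green); filled points have an adjusted p under 0.05. ELF5, GHR and PRLR are filled in these 3 fits, while CISH moves from -0.26 to 0.08 without the 1 cow.

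The level of luminal epithelial markers moved with casein as well (r = 0.803, permutation p = 1e-05, the smallest possible, rho 0.835, permutation p = 1e-05). It was 0.724 without the 2 cows farthest in the marker level and 0.850 within the 16 cows. With the mean luminal marker level as a covariate, ELF5 rose by 1.002 (SE 0.08, edgeR adjusted p = 1.5e-08), GHR by 0.97 (SE 0.21, adjusted p = 0.0029) and PRLR by 0.45 (SE 0.16, adjusted p = 0.0442) per doubling of casein. SOCS2 was at 0.04 in that fit (edgeR adjusted p = 0.759). SOCS3 fell by 0.65 and CISH by 0.56 (edgeR adjusted p = 0.000258 for both). Over all genes, 3034 of 12333 passed in this fit. In the same fit without LY replicate 12 only ELF5 and GHR of the 8 passed, at 1.03 and 0.92 (edgeR adjusted p = 4e-07 and 0.0198). Beside them, 1406 of all 12307 genes passed. PRLR was then at 0.43 (SE 0.19, adjusted p = 0.128), SOCS3 at -0.40 (SE 0.16, adjusted p = 0.0915) and CISH at -0.07 (SE 0.09, adjusted p = 0.616).

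Other genes of the pathway were read from a list. Of 7 further JAK and STAT genes tested, STAT6 fell by 0.25 and STAT2 by 0.36 log2 units per doubling of casein (edgeR adjusted p = 0.000374 and 0.0284), and the other 5 did not pass. STAT6 relays interleukin 4 and STAT2 relays interferon. Of 13 further inhibitors and adaptors, PIAS4, PTPN1 and PIAS3 fell, by 0.19, 0.15 and 0.11 (edgeR adjusted p = 0.00537, 0.00941 and 0.0241), and none rose, beside 9.58% of all genes that fell. PIAS proteins bind STATs and PTPN1 is a phosphatase of JAK2. Without LY replicate 12 STAT6, STAT2 and PIAS4 still fell, beside 5.63% of all genes, and PTPN1 and PIAS3 did not pass.

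Of 8 STAT5 targets outside the milk proteins, OSM, PIM1 and BCL2L1 fell, by 0.33, 0.16 and 0.15 (edgeR adjusted p = 0.0097, 0.0171 and 0.0111), and none rose, beside 9.58% of all genes that fell. None of the 8 passed without LY replicate 12. The hormone gene IGF1 did not pass either. Neither did GH1, which was nearly undetected, with a median of 0 CPM over the cows other than LY replicate 12 and at most 0.171 CPM in any cow. By contrast, all 7 casein and whey protein genes tested rose with casein, of which the 4 caseins define the measure. Their median slope was 1.03.

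Luminal transcription factors other than ELF5 rose in 5 of 6 cases, beside 11.4% of all genes. EHF, an ETS factor related to ELF5, rose by 0.55 log2 units per doubling (SE 0.05, edgeR adjusted p = 2.02e-09). The progesterone receptor PGR rose by 0.51 and the oestrogen receptor ESR1 by 0.42 (edgeR adjusted p = 0.000424 and 0.00486). ELF3 rose by 0.26 and GATA3 by 0.19 (edgeR adjusted p = 0.0183 and 0.0172), and FOXA1 did not pass. PGR, ESR1 and FOXA1 were thinly detected, with at most 3.34, 3.73 and 0.231 CPM in any cow. Over the cows other than LY replicate 12 their medians were 0.430, 0.994 and 0 CPM. Of the cell markers, 6 of 8 luminal genes rose, beside 11.4% of all genes, and 6 of 7 macrophage genes fell, beside 9.58%. None of 5 neutrophil, 6 T cell, 3 B cell or 4 basal epithelial genes passed.

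The members were also set against cell markers across the cows. With 8 genes and 6 marker lists 48 relations were computed. For each gene the list of largest r is named, a choice made after the values were seen, and no difference between lists or genes was tested. All levels share 1 total per library, and the part of cell composition in the results above was not tested beyond the luminal covariate.

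ELF5 followed the luminal markers (r = 0.759, permutation p = 6e-05, rho 0.834, permutation p = 1e-05, and r = 0.682 without the 2 farthest cows, 0.824 within the 16 cows). PRLR did so at r = 0.559 (permutation p = 0.00828, rho 0.554, permutation p = 0.00997, and r = 0.420 without the 2 farthest cows, 0.603 within the 16 cows). GHR was lower where macrophage markers were higher (r = -0.704, permutation p = 0.00031, rho -0.749, permutation p = 0.00019, and r = -0.666 without the 2 farthest cows, -0.699 within the 16 cows). So was SOCS2 (r = -0.652, permutation p = 0.0017, rho -0.586, permutation p = 0.00626, and r = -0.420 without the 2 farthest cows, -0.834 within the 16 cows). The lists overlap in what they show, since the macrophage markers also ran against ELF5 (r = -0.747) and PRLR (r = -0.533), and the luminal markers ran with SOCS2 (r = 0.576).

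For the transducers and SOCS3 the largest r was with immune cell markers. STAT5A followed the neutrophil markers (r = 0.630, permutation p = 0.00209, rho 0.716, permutation p = 0.00046, and r = 0.586 without the 2 farthest cows, 0.775 within the 16 cows). SOCS3 did the same (r = 0.696, permutation p = 0.00056, rho 0.801, permutation p = 4e-05, and r = 0.612 without the 2 farthest cows, 0.841 within the 16 cows). Without LY replicate 12 this r was 0.820, so that the relation did not rest on that cow. STAT5B followed the T cell markers (r = 0.675, permutation p = 0.00073, rho 0.700, permutation p = 0.00054, and r = 0.659 without the 2 farthest cows, 0.571 within the 16 cows). CISH was most related to the basal epithelial markers (r = 0.535, permutation p = 0.0147, rho 0.645, permutation p = 0.00173, and r = 0.608 without the 2 farthest cows, 0.513 within the 16 cows), a list with summed levels of only 4.59 to 49.9 CPM. Without LY replicate 12 this r was 0.550.

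Among the 28 pairs of members, the largest Pearson's r over the 21 cows was between GHR and ELF5 (r = 0.794, permutation p = 1e-05, the smallest possible, rho 0.762, permutation p = 0.00012). It was 0.735 without the 2 cows farthest in GHR and 0.782 within the 16 cows. PRLR and ELF5 were related at r = 0.719 (permutation p = 0.00022, rho 0.713, permutation p = 0.00054, and r = 0.849 without the 2 cows farthest in PRLR, 0.698 within the 16 cows). The 2 receptors were related at r = 0.543 (permutation p = 0.0112, rho 0.566, permutation p = 0.00816, and r = 0.717 without the 2 cows farthest in PRLR, 0.498 within the 16 cows).

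STAT5A was related to SOCS3 (r = 0.731, permutation p = 0.00019, rho 0.775, permutation p = 1e-04, and r = 0.705 without the 2 cows farthest in STAT5A, 0.716 within the 16 cows) and to STAT5B (r = 0.582, permutation p = 0.00556, rho 0.535, permutation p = 0.0134, and r = 0.409 without the 2 farthest, 0.363 within the 16 cows). Without LY replicate 12 the r of STAT5A and SOCS3 was 0.686. GHR and SOCS3 ran against each other (r = -0.664, permutation p = 0.00087, rho -0.667, permutation p = 0.00118, and r = -0.583 without the 2 cows farthest in GHR, -0.665 within the 16 cows), at -0.634 without LY replicate 12. SOCS3 and CISH had an r of 0.585 over 21 cows (permutation p = 0.00967), which was 0.210 without LY replicate 12 (permutation p = 0.372). Their rho was 0.255 over 21 cows (permutation p = 0.264), and the relation of this pair rested on that cow.

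For the 6 members counted in every cow, the genes of most similar pattern were sought among 9627 genes with a mean of at least 10 counts, by Pearson's r of log2(CPM + 0.25) over the 21 cows. These values are a description. For ELF5 the closest included RASEF (r = 0.995) and DNAJC12 (0.991). CSN2 stood at rank 12 (0.978) and EHF at rank 26 (0.963). For STAT5A they were ZFYVE1 (0.890), ZFAND3 (0.886) and SCN4B (0.880).

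For STAT5B the closest were LOC514257 (0.929), IL6R (0.924) and SMAP2 (0.903). For SOCS3 they were NCLN (0.950), ZYX (0.929) and APBA3 (0.929), and each stayed at 0.888 or above without LY replicate 12. SOCS2 had looser neighbours, NXNL2 (0.727), HPGD (0.709) and CHRNA3 (0.707). CISH had CCND3 (0.862), CSF2 (0.815) and DHRS13 (0.803), which were 0.659, 0.499 and 0.553 without LY replicate 12.

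LY replicate 12 is described on its own, since it decided results for CISH and SOCS3. It had 10829 counts of CISH and 8629 of SOCS3, where the highest other cow had 1247 and 810. STAT5A (141 CPM) and STAT5B (10.95 CPM) ranked 2 of 21 cows, and SOCS2 (18.6 CPM) ranked 8. ELF5 (4.04 CPM) was 0.0257 times the median of the other cows, and GHR was at 0.

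Of the STAT5 targets, OSM was at 517 CPM in this cow against at most 136 CPM elsewhere, and PIM1 at 892 CPM against at most 461 CPM. BCL2L1 and IL2RA were also highest there, by 1.07 times and 1.25 times. PIM2 ranked 4, BCL6 7, CCND1 10 and MYC 19 of 21. By summed CPM its T cell markers ranked 2 (759 CPM), its macrophage markers 3 (4690 CPM) and its basal epithelial markers 4 (28.8 CPM) of 21 cows. Its neutrophil markers ranked 9, its B cell markers 13 and its luminal markers 15.

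**Figure D3:**
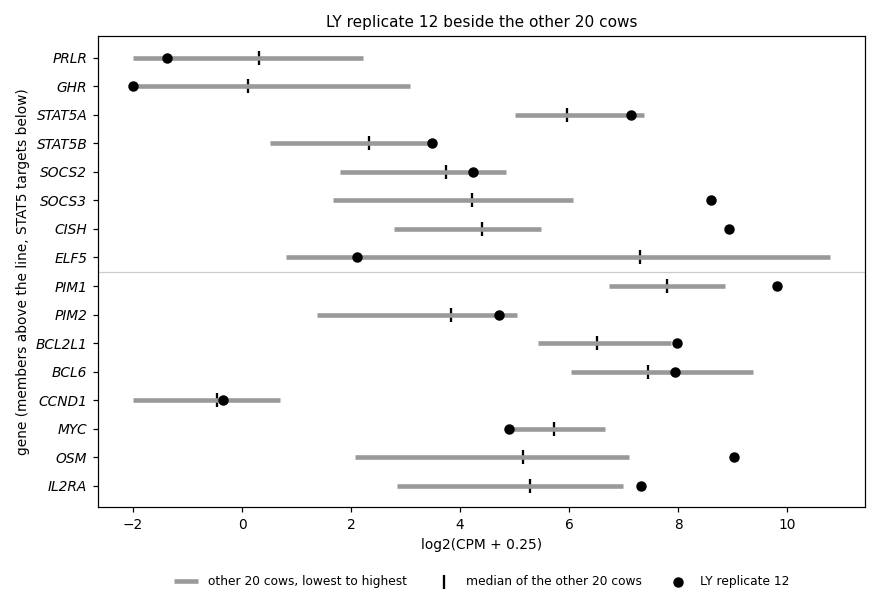
For each gene the grey bar spans the lowest to the highest of the other 20 cows in log2(CPM + 0.25), the tick marks their median and the black point is LY replicate 12. CISH, SOCS3, PIM1 and OSM lie well to the right of the bar, and ELF5 lies near its lower end.

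Against the lactation period none of the 8 members passed the test, beside 3 of 12333 genes (0.0243%). At an unadjusted p under 0.05, 2 members passed, beside 2756 genes (22.3%). With DESeq2 865 genes passed and still no member. The largest slopes were those of SOCS3, at 0.98 log2 units per 100 days (SE 0.44, n = 21, edgeR adjusted p = 0.191), and CISH, at 0.82 (SE 0.44, adjusted p = 0.273). Without LY replicate 12, a cow sampled at 224 days, they were 0.46 and 0.04.

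STAT5B had the largest correlation with lactation period of the 8 genes. Its slope was 0.47 log2 units per 100 days (SE 0.21, n = 21, edgeR p = 0.0368, adjusted p = 0.196). Across the cows r was 0.526 (permutation p = 0.01425) and rho 0.444 (permutation p = 0.0460), with r 0.653 without the 2 cows farthest from the median period and 0.562 within the 16 cows. The values did not pass the adjusted threshold. STAT5A had a slope of 0.25 (SE 0.17, edgeR adjusted p = 0.390), and the log2 ratio of STAT5A to STAT5B had an r of -0.386 with the period (permutation p = 0.0831, rho -0.332, permutation p = 0.140, and r = -0.528 without the 2 farthest cows, -0.468 within the 16 cows).

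The other members gave slopes between -0.68 and -0.05 log2 units per 100 days. ELF5 was at -0.68 (SE 0.56), PRLR at -0.45 (SE 0.47), GHR at -0.39 (SE 0.59) and SOCS2 at -0.05 (SE 0.21), with edgeR adjusted p-values of 0.479 to 0.919. The casein level itself had no detectable relation with the period (r = -0.139, permutation p = 0.546, rho -0.108, permutation p = 0.639, and r = -0.347 without the 2 farthest cows, -0.0577 within the 16 cows). Of the lists of pathway genes and markers, no gene passed.

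**Figure D4:**
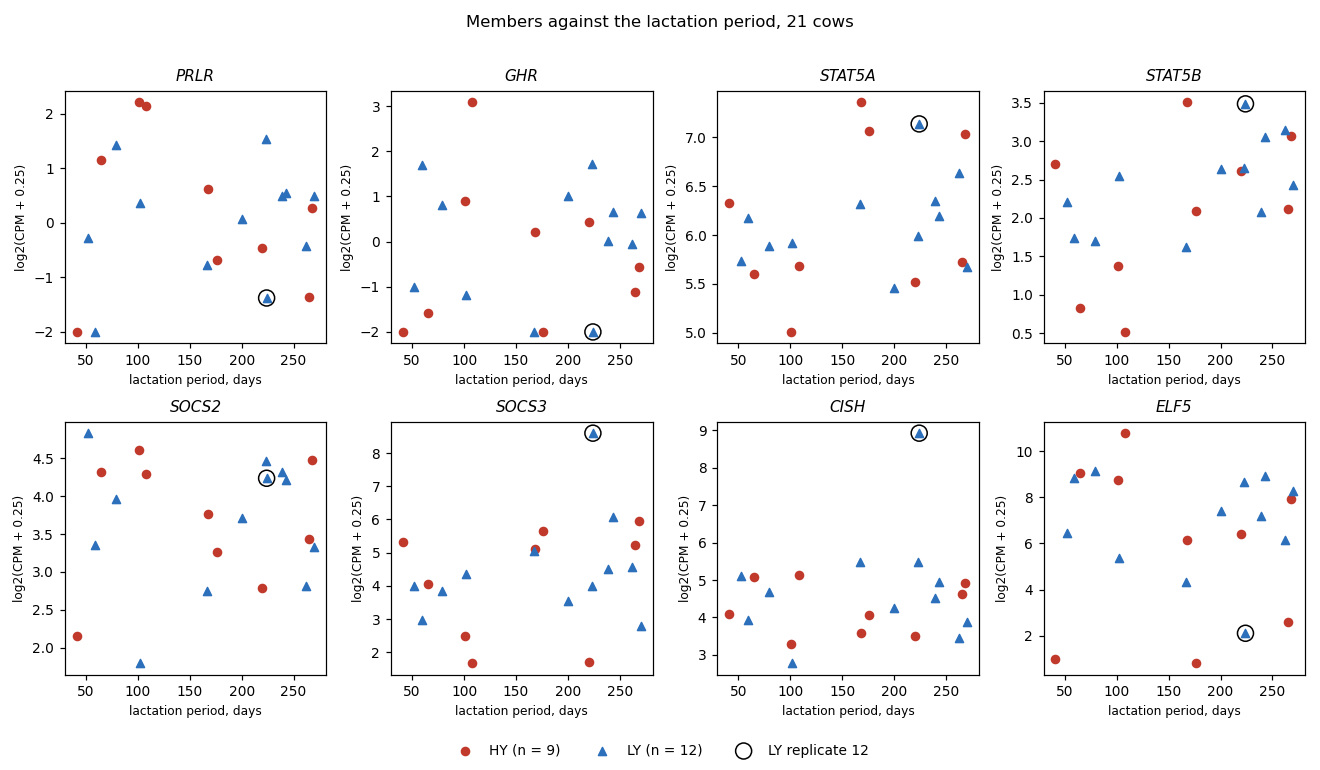
Each panel plots 1 gene in 21 cows, with log2(CPM + 0.25) against the lactation period in days; red circles are HY cows, blue triangles LY cows, and the ring marks LY replicate 12. STAT5B has the most evident upward drift (r = 0.526), and the ELF5 values are scattered at every period.

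Milk yield was the trait the study set out to relate to expression. In a linear regression of milk yield on log2(CPM + 0.25), no gene of 12333 passed an adjusted p under 0.05 (0%), and 307 (2.49%) had an unadjusted p under 0.05, none of them a member. The slope of ELF5 was -21.9 units of milk yield per doubling of expression (SE 20.6, n = 21, adjusted p = 0.9999). Its r was -0.237 (permutation p = 0.299, rho -0.222, permutation p = 0.331), -0.188 without the 2 cows farthest in milk yield and -0.327 within the 16 cows. The other 7 members had correlations between -0.135 (CISH) and 0.102 (STAT5A). With edgeR and counts as the response 13 genes passed, none a member.

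Between the yield groups no gene passed (0 of 12333, 0%, edgeR quasi-likelihood test), and 580 genes (4.7%) had an unadjusted p under 0.05. DESeq2 called 1 gene, which was not a member. CISH was the only member with an unadjusted p under 0.05. Its log2 difference of HY against LY was -1.59 (SE 0.64, p = 0.0207, adjusted p = 0.999), and without LY replicate 12 it was -0.22. DESeq2, which replaces outlying counts in groups of this size, gave -0.20.

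The difference in mean log2(CPM + 0.25) of CISH was -0.53, from 4.25 ± 0.71 in HY (SD, n = 9) and 4.79 ± 1.53 in LY (SD, n = 12; exact two-sided permutation test over 293930 ways, p = 0.392). ELF5 was 5.94 ± 3.67 in HY and 6.90 ± 2.15 in LY (exact permutation p = 0.459). PRLR was 0.21 ± 1.47 and 0.01 ± 1.05 (exact permutation p = 0.716), and GHR was -0.29 ± 1.65 and 0.02 ± 1.30 (exact permutation p = 0.626). In each of these the difference was smaller than the spread between cows of a group.

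The same held for the rest. STAT5A differed by 0.03, SOCS2 by 0.03, STAT5B by -0.35 and SOCS3 by -0.39 on the log2 scale, HY minus LY, with exact permutation p-values of 0.929, 0.935, 0.332 and 0.601. For ELF5 and GHR the edgeR fold change, which follows the mean of the counts, had the other sign (0.60 and 0.22), and a single cow with high levels, HY replicate 9, turned it. Without it the edgeR differences were -0.42 and -1.09.

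**Figure D5:**
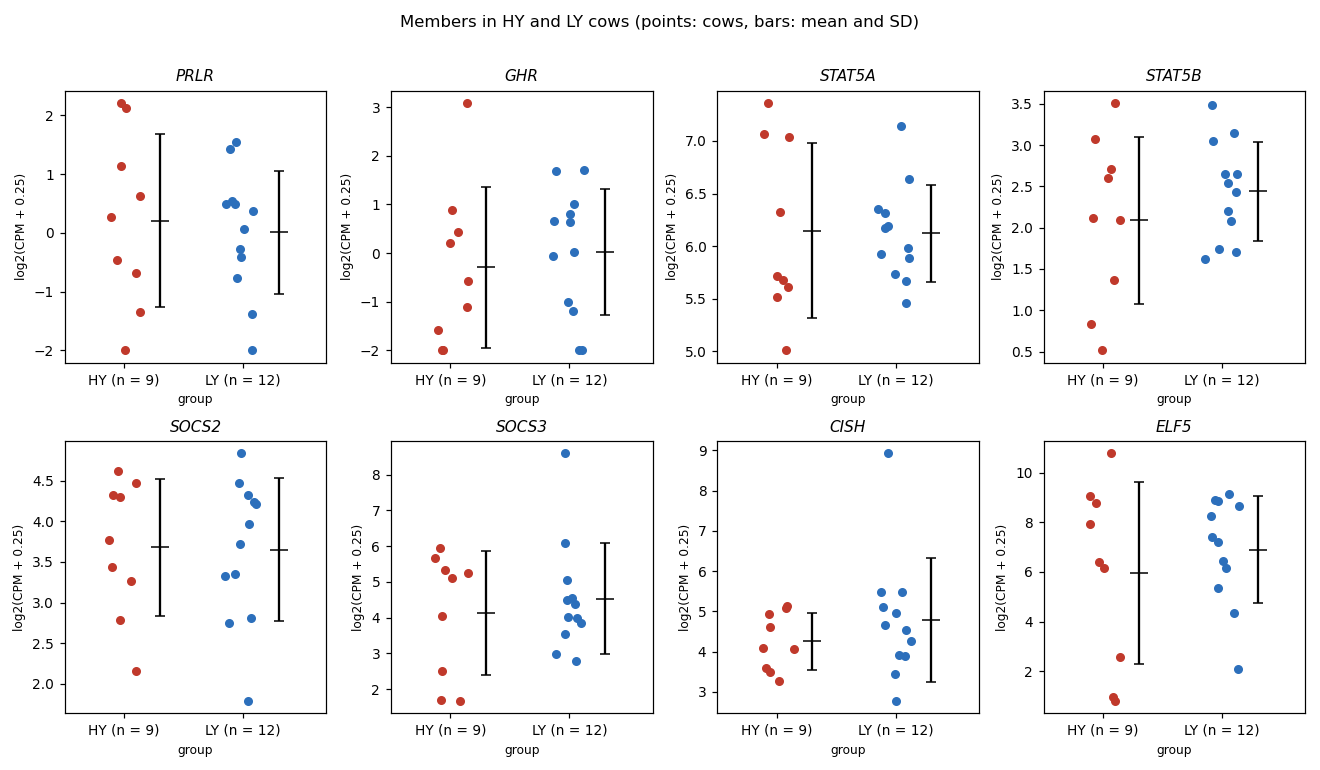
Each panel plots 1 gene with 1 point per cow, log2(CPM + 0.25) against the group, and the bar beside the points gives the mean and SD (HY n = 9, LY n = 12). The groups overlap in all 8 panels, with 1 LY cow far above the rest for SOCS3 and CISH.

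The slopes on casein were also compared between the groups. The difference of slopes, HY minus LY, ran from -0.23 (GHR, SE 0.28) to 0.53 (CISH, SE 0.13) log2 units per doubling. None of the 8 passed the edgeR interaction test after adjustment (CISH p = 0.000301, adjusted p = 0.455), beside 0 of 12333 genes. Over all genes, 792 had an unadjusted p under 0.05 in this test. The CISH value rested on LY replicate 12, and without it the difference was -0.02 (SE 0.15, p = 0.889). For ELF5 the difference was 0.06 (SE 0.10, adjusted p = 0.964). The slopes on lactation period did not differ detectably between the groups either, with adjusted p = 1 for all 8 genes, beside 0 of 12333 genes that passed.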

How the data were processed

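Libraries of total RNA from milk somatic cells were made with an Illumina protocol. Per the labels and the study's methods, the authors trimmed reads (Trimmomatic), mapped them to bosTau7 (TopHat2 with Bowtie2) and deposited raw counts per gene from HTSeq. Whether counting used strand is not given in the sources used here. A row without a symbol (0.036% to 0.151% of counts) and the HTSeq summary rows were left out. Groups, lactation period and milk yield came from the labels. Replicate numbers are in accession order and pair nothing. The members and gene lists were chosen with earlier results of these data known.

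Counts were TMM-scaled. The slopes on casein and lactation period and the group difference used edgeR 4.0.16 quasi-likelihood tests, and milk yield was regressed on log2(CPM + 0.25), over all 12333 genes (adjusted p under 0.05). Correlations used 100000 resamples. DESeq2 1.42.0, robust regression (MASS), other scalings, filters, covariates and leaving out each cow were alternatives. The set of 5 cows of high mapping rate is that of the study's mapping statistics. It holds HY replicate 2 and LY replicates 7, 9, 11 and 12, so results in the 16 other cows also leave out LY replicate 12. Named were all members and, for those counted in every cow, the 3 genes of highest r, of which 1 is not reported here. The edgeR tests of slope and group, the milk yield regression and the correlation test were tried on simulated data. The floors of 3 counts cover counting error only, while the SE and SD values include differences between cows. No 2 libraries agreed within sampling noise (chi-square per degree of freedom at least 37.9).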

Additional observations from a re-analysis of the deposited data

Results flagged for a closer look

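In HY, 1 cow lay far from the other 8 for a pair of members. GHR in HY replicate 9 was at 8.25 CPM, and the next HY cow was at 1.60 CPM, a gap of 0.806 of the whole range of the group. ELF5 in the same cow was at 1766 CPM against 535 CPM in the next, a gap of 0.698 of the range. The critical value of Dixon's test for 9 samples is 0.493. For a single test on normally distributed values chance passes it in about 1 of 20 groups, and more often over many tests. All 8 members with a row were put to it on the CPM and the log2 scale, and no other gap passed. On the log2 scale the same gaps were 0.432 and 0.173 of the range, under the critical value. This cow had the second highest casein share, 33.6%, and one of the lowest TMM factors, 0.498, which raises its CPM values. The 12 LY cows were not put to this test. Among them, LY replicate 12 was 10.95 times the next highest cow for CISH and 5.76 times for SOCS3. Whether the scaling had a part in these values was not tested.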

How the results depend on the processing

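Against casein, ELF5, GHR and PRLR kept their direction in every alternative that tested them, and 4 to 6 members passed in each alternative but 1. Those alternatives called 1405 to 3034 of all genes, out of 7146 to 12333 tested. With the luminal covariate and without LY replicate 12 together, 2 members and 1406 genes passed, and STAT5B was at 0.12. Of all genes, 1405 passed in the 16 cows outside the high mapping set. Apart from leaving out single cows, STAT5A passed under 5 alternatives (slopes -0.18 to -0.11), SOCS2 under DESeq2 (0.14) and in the 16 cows (0.18). In the 16 cows, which also leave out LY replicate 12, CISH was at 0.0689 (correlation 0.275) and SOCS3 at -0.13, neither passing. With parity and lactation period as covariates CISH was at -0.18 and did not pass.

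Against lactation period no member passed in any alternative. Genes called were 865 with DESeq2, 248 with at least 10 counts in every cow, 1 without TMM factors, 1 with parity, 0 with at least 10 counts in at least 9 cows, 0 with casein as covariate and 0 in the 16 cows. Without TMM factors the median slope of all genes was 0.18 against 0.02, and GHR (0.0576) and SOCS2 (0.11) changed sign. With casein as covariate GHR (0.41), SOCS2 (0.0866) and ELF5 (0.15) did, and SOCS2 (0.14) in the 16 cows.

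In HY against LY no member passed in any alternative, and DESeq2 called 1 gene. The median of all genes was -0.17 without TMM factors against 0.02, and there GHR (-0.29), SOCS2 (-0.36) and ELF5 (-0.12) changed sign. So did SOCS2 with parity and lactation period (-0.0032), and SOCS2 (-0.00047) and ELF5 (-0.0825) with casein as covariate. GHR (-0.16) and SOCS3 (0.33) changed sign in the 16 cows, which also leave out LY replicate 12.

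For milk yield no member passed, and edgeR with counts as response called 13 genes. Signs changed with casein as covariate for GHR (20.1), STAT5A (-13.3), SOCS2 (37.0), SOCS3 (-33.0) and ELF5 (10.6). In the 16 cows they changed for PRLR (-10.2), STAT5A (-3.45), SOCS2 (14.0) and CISH (0.26). With edgeR they changed for GHR (0.00791), STAT5B (0.0269), SOCS3 (-0.0602) and ELF5 (0.0292), with a pseudocount of 1 for STAT5B (4.32) and with parity and lactation period for SOCS3 (-12.2).

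Leaving out 1 cow at a time gave 0 to 428 genes called for lactation period, the highest count without LY replicate 9, and 1917 to 2859 for casein. On casein CISH ranged from -0.286 to 0.0817, SOCS3 from -0.39 to -0.14 and SOCS2 from 0.11 to 0.19, each end nearest the positive being without LY replicate 12. STAT5A ranged from -0.128 to -0.0908 on casein, with edgeR adjusted p from 0.0199 to 0.202, so it passed in some of these fits. On lactation period GHR ranged from -0.572 to 0.0442 and SOCS2 from -0.16 to 0.10. In HY against LY the ranges were -0.42 to 0.78 for ELF5, -1.09 to 0.46 for GHR, -0.12 to 0.14 for SOCS2, -1.16 to 0.41 for SOCS3 and -0.024 to 0.318 for STAT5A. For milk yield they were -23.5 to 35.0 for PRLR, -53.1 to 20.6 for SOCS2, -10.6 to 29.1 for SOCS3, -3.99 to 82.4 for STAT5A and -34.5 to 44.3 for STAT5B. The correlation of the STAT5A to STAT5B ratio with casein ranged from -0.0447 to 0.311.

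The causes of these changes were not tested. No paired analysis was possible because the labels give no numbers shared between the groups. PRLR and GHR, with 0 to 66 counts per cow, limit what their levels can show. The casein level and the members come from the same libraries, and the luminal covariate is itself related to casein. Alternatives in the 16 cows and without LY replicate 12 for single correlations, marker lists, gene lists, the luminal covariate and the interactions were chosen after seeing the data.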

Other observations

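The genes that stood out in LY replicate 12 as CISH and SOCS3 did were looked up after its values were seen. Among 9628 genes with a mean of at least 10 counts, 56 were over 3 times as high in this cow as in the highest other cow, against 0 to 29 in each of the other cows. By that ratio CISH had rank 5 and SOCS3 rank 10. The order mixed genes of many kinds, and no list was fixed for it. Cytokine genes picked from it by eye were CSF2, at 86.6 CPM against at most 5.98 CPM elsewhere, and CSF3, at 142 CPM against 11.1 CPM, the genes of the granulocyte-macrophage and granulocyte colony-stimulating factors. Others were IL6 (21.0 against 3.28 CPM), TNF (871 against 140 CPM), IL23A (91.3 against 18.1 CPM), IL1A (1404 against 309 CPM) and IL12B (33.4 against 7.54 CPM), with OSM at rank 30. Other genes stood between them, among the first 16 COLQ, GPR146, TNFRSF6B, LIX1, EDN1, ATP4B, CSRNP1, CARHSP1 and DUSP2. No label marks this cow as different, but it is among the 5 cows with a high mapping rate. Whether the mapping rate had a part in its values was not tested. It is a single library without a replicate.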
